A study of Homo sapiens with 82 samples.

Results

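CFTR and 9 further genes of epithelial ion and water transport were followed in HT29 cells, a human colorectal adenocarcinoma line, under agonists of 2 kinds of nuclear receptor. The genes are CFTR, ANO1, CLCA1 and BEST2 (anion channels and a channel regulator), KCNQ1, KCNE3 and KCNN4 (potassium channels), SCNN1A (a sodium channel subunit), SGK1 (a kinase) and AQP3 (a water and glycerol channel). They were taken by symbol from tables of 51838 gene rows, and each of the 10 symbols had 1 row. The set was chosen by the measured CFTR counts, which had been seen to be lower with rosiglitazone in these same libraries, so CFTR with rosiglitazone is described here without a test. CLCA1 and BEST2 did not pass the filter on low counts at either time point, and the other 8 genes were tested.

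The cells received DMSO, GW3965, T0901317 or rosiglitazone, the drugs at 10 µM each, for 24 or 48 h, after culture in phenol-red-free medium with charcoal-treated serum. GW3965 and T0901317 are agonists of the liver X receptors (LXRs), and rosiglitazone is an agonist of PPARG. Each of the 8 groups held 4 RNA-seq libraries, 32 in all, with total counts between 21044798 and 51332656. All came from 1 cell line, treated in quadruplicate by the study's methods. Whether the 4 were separate passages or days is not given in the sources used here, so p-values measure only the spread between these libraries, which may be technical. The 3 drugs of a time point were set against the same 4 DMSO libraries.

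In the gut epithelium chloride leaves the cell through apical channels, above all CFTR, which opens when cAMP activates protein kinase A, and calcium-activated channels such as ANO1 add to this. The cotransporter NKCC1 loads the cell with chloride from the blood side, and the basolateral channel of KCNQ1 and its subunit KCNE3 lets potassium return, which keeps the driving force for chloride exit. Sodium is taken up in the opposite direction through the epithelial sodium channel ENaC, whose alpha subunit is SCNN1A and which the kinase SGK1 keeps at the cell surface, and water follows the salt, partly through aquaporins.

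The 250 bases before the start of CFTR, KCNE3 and AQP3 are printed because the results below turn on these genes, 1 at a lower level with rosiglitazone, 1 whose response to the LXR agonists changed with time and 1 that rose with rosiglitazone. The sequences are from RefSeq on GRCh38.p14, 5′ to 3′ on the strand of the gene. CFTR is on the plus strand (chr7:117479775-117480024), and KCNE3 (chr11:74467550-74467799) and AQP3 (chr9:33447594-33447843) are on the minus strand. Capitals mark AGGTCA, the half-site bound by many nuclear receptors.
CFTR: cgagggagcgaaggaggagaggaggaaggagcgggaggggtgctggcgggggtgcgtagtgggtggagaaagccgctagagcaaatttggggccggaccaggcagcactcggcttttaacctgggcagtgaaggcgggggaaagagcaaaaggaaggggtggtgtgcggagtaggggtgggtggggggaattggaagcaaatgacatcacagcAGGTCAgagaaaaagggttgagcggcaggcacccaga
KCNE3: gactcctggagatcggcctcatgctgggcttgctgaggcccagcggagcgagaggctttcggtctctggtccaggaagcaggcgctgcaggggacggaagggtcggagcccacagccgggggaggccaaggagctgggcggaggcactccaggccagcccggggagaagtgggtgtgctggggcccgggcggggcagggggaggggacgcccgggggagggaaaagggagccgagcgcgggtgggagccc
AQP3: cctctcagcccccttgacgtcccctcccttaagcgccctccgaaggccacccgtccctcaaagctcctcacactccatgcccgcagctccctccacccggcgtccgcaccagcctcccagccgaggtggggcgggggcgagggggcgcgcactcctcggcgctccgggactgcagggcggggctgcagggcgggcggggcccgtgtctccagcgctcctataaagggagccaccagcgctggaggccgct

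The CFTR promoter held 1 AGGTCA, and so did that of CLCA1, while 12.1% of the 35116 RefSeq promoter windows held at least 1. The windows searched were the 250 bases before each start, on both strands, with overlap between motifs allowed. The repeats AGGTCANAGGTCA (DR1, bound by PPAR with RXR) and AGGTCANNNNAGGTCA (DR4, bound by LXR with RXR) were in 0.0171% and 0.0142% of windows, the AP1 site TGANTCA in 6.57% and the cAMP response element TGACGTCA in 1.65%. None of these longer motifs was found, in exactly these letters, in the windows of the 8 genes that the table covers. SCNN1A and KCNQ1 are not among them. Near matches were not searched, such as tgacatca in the CFTR sequence beside TGACGTCA, so variant sites are not excluded. These matches describe letters in the sequence only. GC content was 61.2% for CFTR, 73.2% for KCNE3 and 73.6% for AQP3.

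Known targets of the drugs were higher in the treated libraries. Levels are in CPM, the count of a gene relative to the total of its library, which was scaled by the trimmed mean of M-values within its time point. ABCA1, a cholesterol exporter induced by LXR, was at 4.62 ± 0.281 CPM with DMSO, 113 ± 8.83 with GW3965 and 60.6 ± 6.36 with T0901317 at 24 h (SD, n = 4). With rosiglitazone at 24 h the PPAR targets ANGPTL4 and PDK4 went from 0.591 ± 0.334 to 19.8 ± 1.76 CPM and from 4.63 ± 0.286 to 27.7 ± 2.43 CPM. Of 8 markers of colon epithelium, KRT8, KRT18, KRT20, EPCAM and LGALS4 were at or above 243 CPM in every library and CDH1 at or above 235.5 CPM. VIL1 ran from 53.2 to 258 CPM, and CDX2 was low, at 6.43 to 20.6 CPM. Of the fibroblast, leukocyte and endothelial markers only LYZ exceeded 10 CPM, at 449.6 to 762 CPM, while PTPRC and CD3E were at or near 0. PECAM1 was not matched by symbol. Replicate 1 of GW3965 at 24 h and replicates 1 and 3 of rosiglitazone at 48 h stood apart from their groups, with SDs of deviation across genes of 0.222, 0.201 and 0.212 (log2 scale) against at most 0.157 elsewhere.

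CFTR (ENSG00000001626.8) was lower with rosiglitazone in every library at both times. At 24 h replicates 1 to 4 held 64.9, 72.2, 82.5 and 62.7 CPM with DMSO and 20.8, 24.3, 27.3 and 21.3 CPM with rosiglitazone. At 48 h they held 94.3, 113, 102 and 98.6 CPM with DMSO and 24.5, 24.2, 13.8 and 21.7 CPM with rosiglitazone. The groups did not overlap, and the lowest of all 32 libraries was rosiglitazone replicate 3 at 48 h. The means were 70.6 ± 8.93 and 23.4 ± 2.998 CPM at 24 h (SD, n = 4), 3.01-fold apart, with a log2 difference of -1.59 (standard error 0.091). At 48 h they were 102 ± 7.88 and 21.04 ± 4.98 CPM, 4.85-fold apart, with a log2 difference of -2.28 (standard error 0.12). In bulk RNA, fewer cells that express a gene and less of its RNA per cell cannot be told apart. Leaving out each library in turn, replicates 1 and 3 of rosiglitazone at 48 h included, kept the 48 h difference between -2.36 and -2.12.

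**Figure D1:**
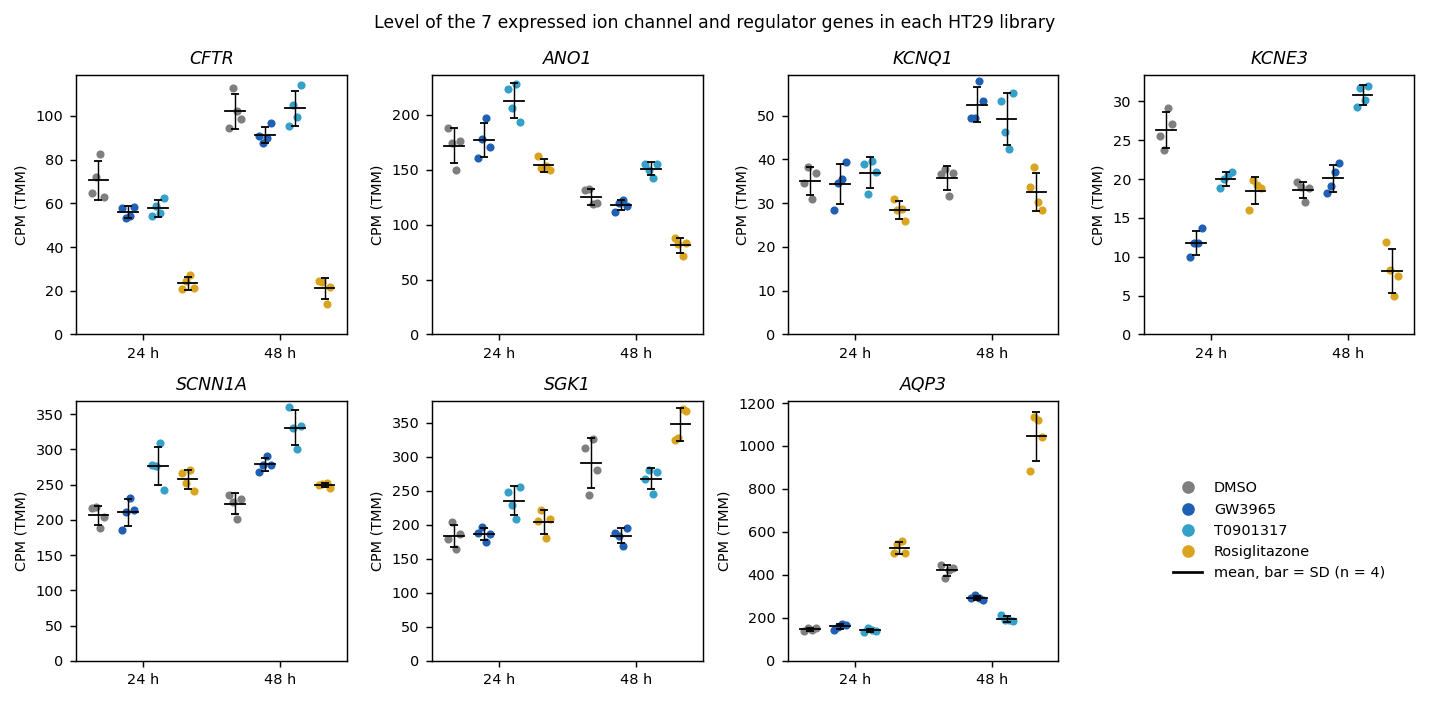
Level of 7 genes in CPM (vertical axes) in each library (points), by treatment and time, with the mean as a bar and the SD (n = 4) as the error. CFTR with rosiglitazone averaged 23.4 and 21.04 CPM against 70.6 and 102 CPM with DMSO at 24 and 48 h, and AQP3 averaged 526 and 1045 CPM against 148 and 422 CPM.

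The differences in CFTR were smaller with the LXR agonists. At 24 h the GW3965 libraries held 58.1, 53.3, 54.02 and 58.4 CPM and the T0901317 libraries 53.98, 58.7, 55.5 and 62.3 CPM, and all 8 lay below the 4 DMSO libraries. Neither difference passed the test (-0.33, adjusted p = 0.029 for GW3965, -0.29, adjusted p = 0.0966 for T0901317; log2), although DESeq2 gave GW3965 an adjusted p of 0.00745. At 48 h GW3965 (90.6, 87.6, 90.004 and 96.5 CPM) and T0901317 (95.3, 105, 99.6 and 114 CPM) overlapped DMSO, with log2 differences of -0.16 (95% interval -0.39 to 0.063) and 0.019 (-0.21 to 0.24). Ordered by mean, CFTR went from T0901317 at 48 h (103 CPM) through DMSO at 48 h (102), GW3965 at 48 h (91.2), DMSO at 24 h (70.6), T0901317 at 24 h (57.6) and GW3965 at 24 h (55.96) to rosiglitazone at 24 h (23.4) and 48 h (21.04). Neighbours overlapped among the first 3, between the LXR agonists at 24 h and between the rosiglitazone groups, and the other neighbours did not overlap, DMSO and T0901317 at 24 h only narrowly (62.7 and 62.3 CPM at the closest).

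ANO1 (ENSG00000131620.12), the calcium-activated chloride channel, fell with rosiglitazone and rose with T0901317 at 48 h. The DMSO libraries then held 132, 132, 119 and 119.6 CPM, the rosiglitazone libraries 87.9, 82.3, 71.1 and 82.98 CPM and the T0901317 libraries 155, 150.1, 143 and 155 CPM. Rosiglitazone lay wholly below DMSO and T0901317 wholly above it. The log2 differences were -0.63 (standard error 0.064, adjusted p = 2.85e-07) and 0.26 (standard error 0.064, adjusted p = 0.00237), and the T0901317 call was lost without DMSO replicate 3 or 4 (adjusted p = 0.0135 in both cases). At 24 h ANO1 passed no test, with 0.31, adjusted p = 0.0293 for T0901317 and -0.16, adjusted p = 0.149 for rosiglitazone. DESeq2 called the first of these (adjusted p = 0.00662) and scaling by library size alone the second (adjusted p = 0.00661).

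CLCA1 (ENSG00000016490.9), a secreted goblet cell protein that regulates calcium-activated chloride current, had 0 to 6 counts in a library and 0 in all 4 rosiglitazone libraries at 48 h. BEST2 (ENSG00000039987.2), an anion channel of the bestrophin family, had 0 to 19 counts. A change in either was not detectable at this depth.

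KCNE3 (ENSG00000175538.6), the subunit that holds KCNQ1 open in the colon, fell with GW3965 at 24 h and with rosiglitazone at both times, and rose with T0901317 at 48 h. At 24 h replicates 1 to 4 held 25.6, 23.7, 29.2 and 27.1 CPM with DMSO, 10.01, 11.7, 11.7 and 13.7 CPM with GW3965 and 16.03, 19.9, 19.2 and 18.9 CPM with rosiglitazone. Both drug groups lay wholly below DMSO, with log2 differences of -1.16 (standard error 0.091, adjusted p = 4.12e-08) and -0.51 (standard error 0.089, adjusted p = 0.000315). The T0901317 libraries at 24 h (18.8, 19.98, 20.5 and 20.9 CPM) also lay below DMSO, without passing the test (-0.40, adjusted p = 0.0156). DESeq2 called this difference (adjusted p = 0.00229), as did 4 other settings.

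At 48 h KCNE3 stood at 19.6, 18.96, 17.1 and 18.9 CPM with DMSO, 18.2, 19.1, 20.96 and 22.1 CPM with GW3965, 29.3, 31.7, 30.2 and 32.01 CPM with T0901317 and 11.9, 8.27, 4.92 and 7.51 CPM with rosiglitazone. GW3965 overlapped DMSO, T0901317 lay above it and rosiglitazone below it, with the widest scatter in the rosiglitazone libraries. The log2 differences were 0.11 (95% interval -0.18 to 0.40) for GW3965, 0.73 (standard error 0.15, adjusted p = 0.000462) for T0901317 and -1.19 (standard error 0.16, adjusted p = 7.03e-06) for rosiglitazone. Without replicate 1 or 3 of rosiglitazone the last was -1.44 or -1.002.

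KCNQ1 (ENSG00000053918.10), the pore of the same channel, rose with both LXR agonists at 48 h. The libraries held 36.7, 37.8, 31.6 and 37.005 CPM with DMSO, 49.5, 49.5, 57.8 and 53.4 CPM with GW3965 and 53.4, 46.3, 42.5 and 55.1 CPM with T0901317. Neither drug overlapped DMSO, and the log2 differences were 0.56 (standard error 0.10, adjusted p = 8.77e-05) and 0.46 (standard error 0.10, adjusted p = 0.000588). KCNQ1OT1, an antisense RNA within KCNQ1, was higher with GW3965 at 48 h as well (means of 8.17 and 12.8 CPM, log2 difference 0.65, adjusted p = 0.00181), and since no source used here says whether strand was counted, reads of the 2 genes cannot be told apart. With rosiglitazone KCNQ1 averaged 28.5 ± 2.02 against 35.2 ± 3.21 CPM at 24 h (adjusted p = 0.0264) and 32.6 ± 4.35 against 35.8 ± 2.82 CPM at 48 h (adjusted p = 0.307). Scaling by library size alone called both as lower (adjusted p = 0.00127 and 0.00957). KCNN4 (ENSG00000104783.5), the calcium-activated potassium channel of intermediate conductance, was barely detected, at 0 to 33 counts in a library and group means of 0.190 to 0.491 CPM, and each drug overlapped DMSO at both times.

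SCNN1A (ENSG00000111319.8), the alpha subunit of ENaC, rose with T0901317 at both times, with rosiglitazone at 24 h and with GW3965 at 48 h. At 24 h the libraries held 216, 218, 189 and 204 CPM with DMSO, 277, 276, 309 and 242 CPM with T0901317 and 266, 253, 271 and 241 CPM with rosiglitazone. Both drugs lay wholly above DMSO, with log2 differences of 0.42 (standard error 0.077, adjusted p = 0.00287) and 0.32 (standard error 0.077, adjusted p = 0.00543). These 2 calls were fragile. Each was lost in 5 of 8 fits that left out 1 library: for both without DMSO replicate 3 or 4, for T0901317 also without its replicate 1, 2 or 3, and for rosiglitazone also without its replicate 1, 2 or 3 (adjusted p up to 0.0147 and 0.0198).

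At 48 h SCNN1A stood at 235, 225, 202 and 229.7 CPM with DMSO, 269, 278, 291 and 279 CPM with GW3965 and 360.3, 330.5, 299.98 and 333 CPM with T0901317, again with no overlap. The log2 differences were 0.32 (standard error 0.060, adjusted p = 0.000171) and 0.57 (standard error 0.060, adjusted p = 2.74e-07). The rosiglitazone libraries, between 246 and 252 CPM, also lay above DMSO, but the difference of 0.16 did not pass (adjusted p = 0.0364) and was -0.014 when scaled by library size alone. SCNN1B and SCNN1G, the other subunits of ENaC, had at most 8 and 2 counts in any library.

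SGK1 (ENSG00000118515.7), a kinase induced by corticosteroids, fell with GW3965 at 48 h. The libraries held 313, 243, 327 and 280.2 CPM with DMSO and 188, 183, 169.5 and 195 CPM with GW3965, with no overlap, and the log2 difference was -0.66 (standard error 0.080, adjusted p = 1.68e-06). T0901317 at 48 h overlapped DMSO (-0.12, adjusted p = 0.255). At 24 h all T0901317 libraries (248, 229, 208 and 256 CPM) lay above those of DMSO (179, 204, 165 and 187 CPM) without passing the test (0.36, adjusted p = 0.0116), which it did with DESeq2 (adjusted p = 0.000661) and without DMSO replicate 2 or T0901317 replicate 3 (adjusted p = 0.00791 and 0.00472). With rosiglitazone at 48 h SGK1 averaged 348 ± 24.4 against 291 ± 37.1 CPM (0.26, adjusted p = 0.0156), a difference that passed with DESeq2 (adjusted p = 0.00512) and without DMSO replicate 3 or rosiglitazone replicate 1 (adjusted p = 0.00527 and 0.00995).

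AQP3 (ENSG00000165272.8), a basolateral water and glycerol channel, rose with rosiglitazone at both times and fell with both LXR agonists at 48 h. At 24 h the libraries held 139, 153, 144 and 154 CPM with DMSO and 503, 543, 558 and 501 CPM with rosiglitazone, a log2 difference of 1.83 (standard error 0.064, adjusted p = 2.64e-13). At 48 h they held 447, 387, 424 and 432 CPM with DMSO and 885, 1133, 1119 and 1044 CPM with rosiglitazone, a difference of 1.31 (standard error 0.074, adjusted p = 8.79e-11). Every rosiglitazone library exceeded every DMSO library of its time. GW3965 at 48 h gave 294, 304, 293 and 281 CPM and T0901317 215, 190.4, 189 and 185 CPM, all below DMSO, with log2 differences of -0.53 (adjusted p = 7.22e-06) and -1.12 (adjusted p = 6.08e-10). At 24 h these were 0.12 and -0.067 and did not pass.

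**Figure D2:**
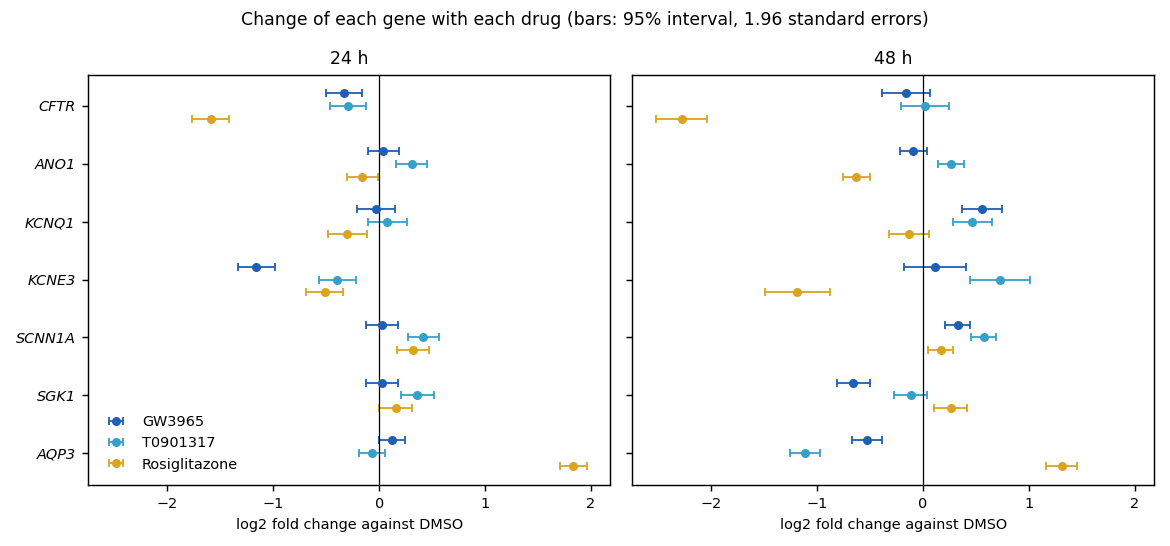
Log2 fold change against DMSO of 7 genes for each drug at 24 and 48 h, with 95% intervals from the standard errors (4 libraries a group) as bars. CFTR with rosiglitazone is at -1.59 and -2.28, AQP3 with rosiglitazone at 1.83 and 1.31, and KCNE3 with GW3965 at -1.16 and 0.11. The values of CFTR with rosiglitazone chose the set, so their bars describe the spread and are not a test.

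Counted over the 8 tested genes at an adjusted p under 0.01, GW3965 at 24 h gave 0 higher and 1 lower, where 1.86% of all tested genes were higher and 0.868% lower. T0901317 at 24 h gave 1 higher and 0 lower (1.33% and 0.119% of all), and rosiglitazone at 24 h gave 2 higher and 1 lower of the 7 other than CFTR (5.81% and 6.52%). At 48 h GW3965 gave 2 higher and 2 lower (16.1% and 17.5%), T0901317 4 higher and 1 lower (14% and 16.1%) and rosiglitazone 1 higher and 2 lower of these 7 (12.3% and 13.1%). CFTR is left out of the rosiglitazone counts because those values chose the set. The study also asked for a 2-fold change. By that rule the genes called were KCNE3 with GW3965 at 24 h (0.537% of all genes), AQP3 with rosiglitazone at 24 h (2.18%), AQP3 with T0901317 at 48 h (5.4%), and AQP3 and KCNE3 with rosiglitazone at 48 h (5.86%), while T0901317 at 24 h (0.28%) and GW3965 at 48 h (5.77%) called none of the 8. At 48 h the median log2 difference was 0.0098 with GW3965 and 0.36 with T0901317 over the 8 genes, and -0.13 with rosiglitazone over the 7. Over all tested genes the medians were 6.02e-05, 0.013 and -0.012. At 24 h the medians of these genes were -0.0015, 0.033 and 0.155 in the same order, against -0.0063, -0.0039 and -0.019 over all tested genes. The barely detected KCNN4 is among the genes in each of these medians.

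Set against each other at 24 h, rosiglitazone exceeded GW3965 in AQP3 (1.72, adjusted p = 3.87e-13) and KCNE3 (0.65, adjusted p = 3.75e-05) and was lower in CFTR (-1.26, not tested), where 10.7% of all genes were called in either direction. Without GW3965 replicate 1, KCNQ1 was lower too (-0.35, adjusted p = 0.00428). Against T0901317 it was higher in AQP3 (1.9003) and lower in ANO1 (-0.47, adjusted p = 0.000129), KCNQ1 (-0.38, adjusted p = 0.00581) and CFTR (-1.30, not tested), where 14.1% of all were called. The KCNQ1 call was lost in 6 of 8 fits that left out 1 library, those without T0901317 replicate 1, 3 or 4 or rosiglitazone replicate 2, 3 or 4 (adjusted p up to 0.0261). At 48 h SGK1 and AQP3 were higher with rosiglitazone than with GW3965 (0.92 and 1.83) and ANO1, KCNQ1 and KCNE3 lower (-0.54, -0.69 and -1.30), where 45% of all genes were called. Against T0901317 the same 5 genes passed in the same directions and SCNN1A was lower (-0.41), where 48.3% of all were called; the SGK1 difference of 0.38 was 0.16 (adjusted p = 0.0894) when scaled by library size alone.

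The 2 LXR agonists, at the same dose, differed in 2 of the 8 genes at 24 h (0.79% of all genes called) and in 5 at 48 h (8.36%). At 24 h GW3965 was lower in KCNE3 (-0.76, adjusted p = 6.38e-05) and SCNN1A (-0.39, adjusted p = 0.00826). At 48 h it was higher in AQP3 (0.59, adjusted p = 4.81e-05) and lower in ANO1 (-0.36, adjusted p = 0.000858), SGK1 (-0.54, adjusted p = 0.000216), KCNE3 (-0.61, adjusted p = 0.00621) and SCNN1A (-0.25, adjusted p = 0.00753). Of these, SCNN1A at 24 h was lost in 6 of 8 fits that left out 1 library (without T0901317 replicate 1, 2 or 3 or GW3965 replicate 1, 2 or 4; adjusted p up to 0.0375), SCNN1A at 48 h in 7 (all but the one without T0901317 replicate 3; up to 0.0305) and KCNE3 at 48 h in 7 (all but the one without T0901317 replicate 1; up to 0.0251). For CFTR the differences were -0.042 (95% interval -0.21 to 0.13) and -0.18 (-0.41 to 0.043) and did not pass.

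The response at 48 h was set against that at 24 h in a fit of all 32 libraries. For GW3965 it was higher for KCNQ1 (0.59, adjusted p = 0.00124) and KCNE3 (1.27, adjusted p = 2.02e-06) and lower for SGK1 (-0.68, adjusted p = 2.46e-05) and AQP3 (-0.64, adjusted p = 3.88e-06), where 21.6% of all genes were called. For T0901317 it was higher for KCNE3 (1.13, adjusted p = 1.37e-05) and lower for SGK1 (-0.48, adjusted p = 0.00201) and AQP3 (-1.05, adjusted p = 5.45e-10), where 17.4% were called, and SGK1 did not pass when scaled by library size alone (adjusted p = 0.011). For rosiglitazone it was lower for ANO1 (-0.46, adjusted p = 0.00381) and AQP3 (-0.51, adjusted p = 0.00104), where 2.45% were called, and for CFTR (-0.67, not tested). The ANO1 call was lost in 6 of 16 fits that left out 1 library, those without replicate 3 of DMSO or replicate 1 or 3 of rosiglitazone at 24 h, or replicate 1 or 2 of DMSO or replicate 3 of rosiglitazone at 48 h (adjusted p up to 0.0158). KCNE3 did not pass for rosiglitazone (-0.66, adjusted p = 0.0292) but did without its replicate 1 at 48 h (-0.91, adjusted p = 0.000168).

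In DMSO alone, 5 of the 9 genes tested in the fit of all 32 libraries (BEST2 passed its filter) differed between 48 and 24 h, where 38.6% of all genes were called and time in culture cannot be told apart from the separate tables of the time points. CFTR (0.51, adjusted p = 0.000217), SGK1 (0.64, adjusted p = 7.27e-08) and AQP3 (1.49, adjusted p = 5.36e-18) were higher at 48 h, and ANO1 (-0.48, adjusted p = 7.44e-07) and KCNE3 (-0.53, adjusted p = 0.0009) were lower. CPM values set across the time points above were scaled within each time point.

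Genes of the same physiology were read in 9 lists, chosen with earlier results of these data known. Each count should be weighed against the share of all tested genes called in that direction. Rosiglitazone raised 5.81% of all genes and lowered 6.52% at 24 h, then raised 12.3% and lowered 13.1% at 48 h. GW3965 raised 1.86% and lowered 0.868% at 24 h, then raised 16.1% and lowered 17.5%. T0901317 raised 1.33% and lowered 0.119% at 24 h, then raised 14% and lowered 16.1%. The median log2 difference of all tested genes lay between -0.019 and 0.013 in the 6 comparisons with DMSO. Of 14 anion exchangers and cotransporters, 12 were tested. SLC12A2, which encodes NKCC1, fell with all 3 drugs at 24 h, from 665 ± 64.7 CPM to 442 ± 8.68 with GW3965 (-0.59, adjusted p = 3.5e-06), 472 ± 27.5 with T0901317 (-0.50, adjusted p = 6.43e-05) and 333 ± 14.1 with rosiglitazone (-0.9998, adjusted p = 1.09e-09). At 48 h it fell from 559.7 ± 30.97 to 193 ± 34.3 CPM with rosiglitazone (-1.54, adjusted p = 3.25e-10) and to 439.8 ± 18.5 CPM with GW3965 (-0.35, adjusted p = 0.00486), with T0901317 at -0.077. The apical exchanger SLC26A6 rose with GW3965 and T0901317 at 48 h (0.71 and 0.61) and fell with rosiglitazone (-1.05), and the sulfate transporter SLC26A2 (0.74 and 1.02) and the anion transporter SLC26A9 (1.89 and 1.87) rose with both LXR agonists. Over the list 6 rose and 2 fell (median 0.44) with GW3965 at 48 h and 2 rose and 3 fell (median -0.46) with rosiglitazone.

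Of 29 other chloride and anion channel genes, 25 were tested at 24 h and 26 at 48 h. With rosiglitazone 2 rose and 5 fell (median -0.072) at 24 h (5.81% and 6.52% of all genes). At 48 h 3 rose and 3 fell (median -0.070) with rosiglitazone (12.3% and 13.1% of all genes). CLIC5, a protein of the cortical cytoskeleton named for its channel family, fell with rosiglitazone from 6.23 ± 0.369 to 2.07 ± 0.319 CPM at 24 h (-1.58, adjusted p = 1.49e-08) and at 48 h (-2.46), and with GW3965 (-1.05 and -1.22), with T0901317 at 0.045 and 0.0085. CLCN4, an endosomal chloride-proton exchanger, fell with rosiglitazone at both times (-1.99 and -1.92), but met the rule for naming list genes only at 48 h. CLIC3 rose with GW3965 and T0901317 at 48 h (1.75 and 1.19) and fell with rosiglitazone (-0.88 and -0.44), and TTYH3 rose with both LXR agonists (1.21 and 0.76). At 48 h 8 rose and 6 fell (median 0.25) with GW3965, and 7 rose and 6 fell (median 0.030) with T0901317.

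Of 10 other aquaporins 5 were tested, and with rosiglitazone 1 rose and 4 fell (median -0.66) at 24 h and 1 rose and 3 fell (median -1.02) at 48 h. AQP7, a glycerol channel of fat cells, rose from 0.241 ± 0.138 to 2.08 ± 0.199 CPM at 24 h (3.10, adjusted p = 9.8e-07) and from 1.02 ± 0.125 to 6.57 ± 1.03 CPM at 48 h (2.68, adjusted p = 2.19e-10). AQP1, a water channel, fell with rosiglitazone (-1.86 and -1.74) and rose with GW3965 and T0901317 at 48 h (1.44 and 1.003), and AQP5, the water channel of glands, fell with rosiglitazone (-0.49 and -1.02).

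Of 16 genes of sodium uptake and the sodium pump, 10 were tested, and with rosiglitazone 2 rose and 3 fell (median 0.017) at 48 h. With T0901317 5 rose and 1 fell (median 0.41) at 48 h, and with GW3965 4 rose and 2 fell (median 0.48). ATP1B1, the beta subunit of the pump, fell with rosiglitazone from 166 ± 2.75 to 96.8 ± 2.10 CPM at 24 h (-0.78, adjusted p = 5.51e-10) and from 158 ± 5.07 to 60.2 ± 3.92 CPM at 48 h (-1.39, adjusted p = 6.67e-13). Of 23 other potassium channel genes 11 were tested, and with rosiglitazone 3 rose and 3 fell (median 0.072) at 48 h. With GW3965 5 rose and 1 fell (median 0.27) at 48 h, and with T0901317 3 rose and 1 fell (median 0.29). KCNJ3, an inward rectifier, fell with rosiglitazone at both times (-1.84 and -2.31) and with GW3965 at 24 h (-0.74, adjusted p = 0.00164). KCNH2 fell with rosiglitazone at 48 h (-1.26) and rose with GW3965 (0.79), and KCNMB4, a subunit of the large-conductance channel, rose with GW3965 and T0901317 (1.15 and 1.24).

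Of 23 secretagogue receptors and cAMP or cGMP enzymes, 17 were tested at 24 h and 18 at 48 h, and with rosiglitazone 3 rose and 2 fell (median -0.057) and then 3 rose and 7 fell (median -0.22). ADORA2B, an adenosine receptor that raises cAMP, rose with it from 1.57 ± 0.170 to 3.58 ± 0.667 CPM at 24 h (1.20, adjusted p = 3.2e-05) and by 1.69 at 48 h. The adenylyl cyclase ADCY4 rose with GW3965 and T0901317 at 48 h (1.09 and 1.24), and ADCY9 rose with rosiglitazone at 48 h (1.13). In this list 2 genes rose and 3 fell at least 2-fold with rosiglitazone at 48 h. The 3 that fell are not named because they did not meet the rule on level and overlap with DMSO. Of 26 SGK and WNK kinases, ENaC handling genes and CFTR adaptors, 24 were tested, and with rosiglitazone 5 rose and 5 fell (median 0.0039) at 24 h and 7 rose and 4 fell (median 0.080) at 48 h. SGK2, a relative of SGK1, rose with rosiglitazone from 37.9 ± 2.75 to 91.8 ± 2.16 CPM at 24 h (1.27, adjusted p = 2.39e-11) and from 35.8 ± 1.48 to 105 ± 10.1 CPM at 48 h (1.56, adjusted p = 4.83e-12). NR3C2, the mineralocorticoid receptor, fell with it (-1.12 and -1.86), and NEDD4, a ubiquitin ligase, fell with GW3965 and T0901317 at 48 h (-1.27 and -1.02).

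**Figure D3:**
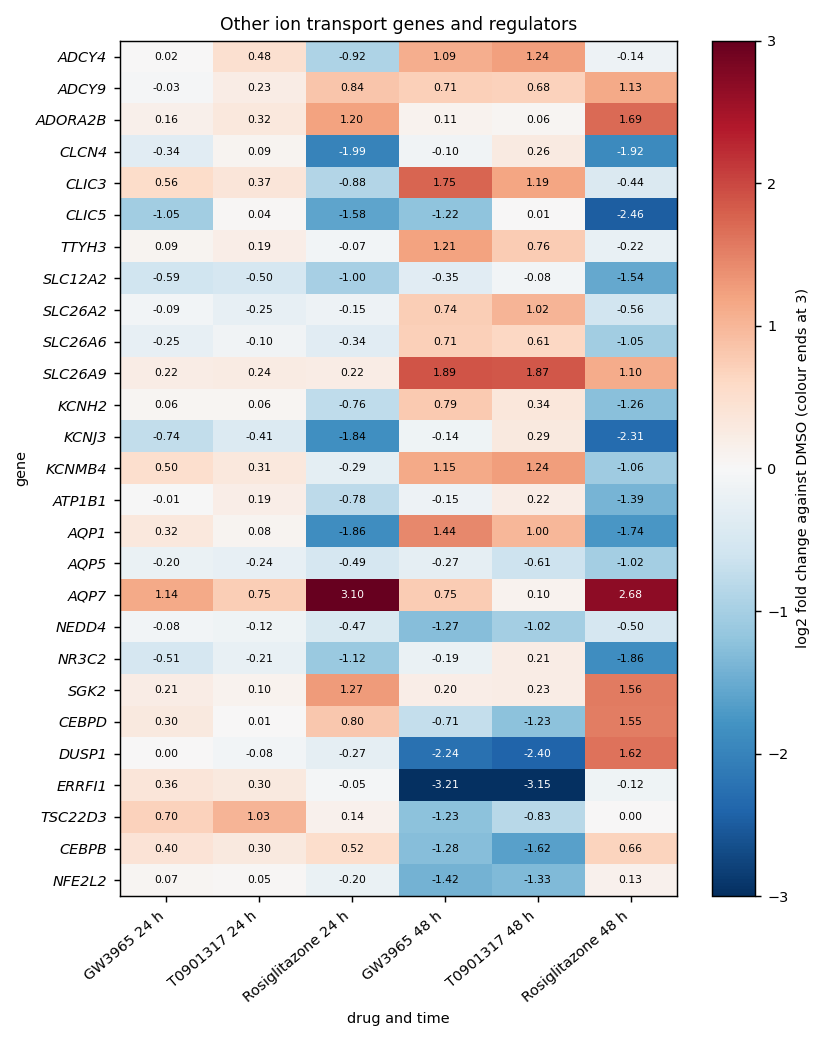
Log2 fold change against DMSO of the 27 genes named by rule from the 9 lists (rows) for each drug and time (columns), with the value printed in each cell; the colour ends at 3. AQP7 with rosiglitazone is at 3.10 and 2.68, and ERRFI1 with GW3965 and T0901317 at 48 h at -3.21 and -3.15.

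Of 10 glucocorticoid-responsive genes, SGK1 among them, 9 were tested. At 24 h 3 rose with GW3965, 1 with T0901317 and 2 with rosiglitazone, and 0 fell. At 48 h 7 fell and 1 rose with GW3965, 6 fell and 1 rose with T0901317, and 0 fell and 4 rose with rosiglitazone, with medians of -0.71, -0.82 and 0.26. ERRFI1, an inhibitor of the EGF receptor, stood at 890.02 ± 56.2 CPM with DMSO at 48 h, 95.98 ± 10.003 with GW3965 (-3.21, adjusted p = 1.05e-14), 101 ± 12.03 with T0901317 (-3.15, adjusted p = 2.06e-14) and 818 ± 82.7 with rosiglitazone, and at 59.004 ± 3.38 CPM with DMSO at 24 h. The phosphatase DUSP1 fell with both LXR agonists at 48 h (-2.24 and -2.40) and rose with rosiglitazone (1.62), as did CEBPD (-0.71, -1.23 and 1.55). TSC22D3, a classical glucocorticoid target, rose with both LXR agonists at 24 h (0.70 and 1.03) and fell at 48 h (-1.23 and -0.83). Of 10 transcription factors described at the CFTR locus, all were tested, and 6 fell and 1 rose with each LXR agonist at 48 h, NFE2L2 (-1.42 and -1.33) and CEBPB (-1.28 and -1.62) among them, while 2 rose and 3 fell (median 0.020) with rosiglitazone.

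Markers of goblet cells, the mucus cells of the gut, moved with CFTR under rosiglitazone. Of 7 markers tested, 5 were lower with it at 24 h and 7 at 48 h (6.52% and 13.1% of all genes), and their summed level was 307 to 410.3 CPM and 186 to 237 CPM in its libraries, against 475 to 534 CPM and 470.3 to 558 CPM with DMSO. FCGBP (adjusted p = 0.583) and SPINK4 (adjusted p = 0.975, at most 39 counts in any library) were not lower at 24 h. At 48 h the more abundant MUC2, FCGBP, SPDEF and AGR2 differed by -1.06, -1.04, -1.28 and -1.45. The falls were larger in markers at low levels. TFF3, a secreted peptide, was at 2.21 ± 0.553 against 11.7 ± 1.78 CPM at 48 h (-2.41, adjusted p = 1.35e-10), and ATOH1, the factor that specifies secretory cells, at 0.120 ± 0.144 against 2.53 ± 0.415 CPM (-4.32, adjusted p = 5.08e-08). With GW3965 at 48 h 2 of the 7 were higher (16.1% of all genes), and with T0901317 4 were lower (16.1%). At 24 h 1 was lower with each, AGR2 with GW3965 and ATOH1 with T0901317 (0.868% and 0.119% of all genes). The part of these markers in the CFTR values was not tested.

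Over the 32 libraries the genes with a pattern most like that of CFTR were C11orf92 (Pearson r of log2 CPM 0.980), KIAA1147 (0.977), CD200 (0.977), KCNJ3 (0.973) and C1orf21 (0.971), among 14507 genes compared. The libraries share their groups, so these values describe the pattern over 8 groups. The rosiglitazone libraries, where CFTR was lowest, entered this choice, so low levels of the 5 genes there follow from it and are no separate result. With rosiglitazone against DMSO, C11orf92 was at 4.96 ± 0.451 and 16.9 ± 1.23 CPM at 24 h and at 4.07 ± 1.17 and 23.5 ± 2.26 CPM at 48 h. The membrane glycoprotein CD200 was at 1.10 ± 0.186 and 6.20 ± 1.30 CPM at 24 h and at 0.594 ± 0.347 and 8.30 ± 0.768 CPM at 48 h. The range was narrower for KIAA1147 (37.7 to 77.4 CPM over the group means) and C1orf21 (12.96 to 27.7 CPM).

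**Figure D4:**
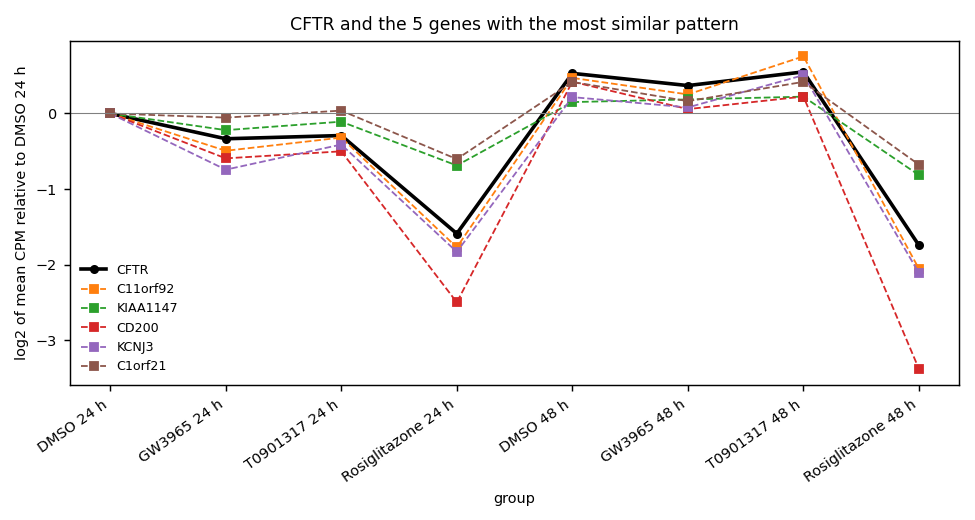
Log2 of the mean CPM relative to DMSO at 24 h (vertical axis) in the 8 groups (horizontal axis) for CFTR and the 5 genes with the most similar pattern. All 6 lines are lowest in the rosiglitazone groups, which follows from choosing the 5 genes by likeness to CFTR over these same libraries. CFTR averaged 23.4 and 21.04 CPM in the rosiglitazone groups against 70.6 CPM with DMSO at 24 h.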

How the data were processed

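RNA-seq of HT29 cells gave 32 libraries, 4 in each of 8 groups, as paired-end libraries from bead-selected mRNA. The authors deposited raw counts per gene, in 1 table per time point, and the submitters' processing notes name TopHat, Cufflinks and hg19. The counting program, annotation release and strand setting: not given in the sources used here. Columns were matched to samples by title (they call rosiglitazone ROSA). The ChIP-seq peak files were not analysed here.

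Genes were filtered with filterByExpr, scaled by the trimmed mean of M-values and tested with the quasi-likelihood test of edgeR 4.0.16 (R 4.3.3), in a fit of the 16 libraries of each time point (21781 and 22470 genes) and, between times, of all 32 (23140 genes). P-values were two-sided and Benjamini-Hochberg adjusted over all genes tested. Where a test is given, rose, fell, higher, lower and passed mean an adjusted p under 0.01. The script was tested on simulated data, and DESeq2 1.42.0, other scalings, filters and left-out libraries were alternatives. Total counts of 21044798 to 51332656 make counting error small for most of the genes named, but not for those with few counts. These include CLCA1, BEST2, KCNN4, SPINK4, SCNN1B and SCNN1G, AQP7 and ANGPTL4 with DMSO at 24 h, and ATOH1 and CD200 with rosiglitazone at 48 h.

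Deviations of same-numbered drug and DMSO libraries correlated between -0.41 and 0.33, so replicate numbers were not taken as pairs. The members and gene lists were chosen with earlier results of these data known. From each list, genes with a 2-fold change, an adjusted p under 0.01, no overlap with DMSO and a mean log2 CPM of 0 or more were named, at most 3 per list and comparison. Likeness to CFTR was Pearson's r over genes with a mean log2 CPM of 1 or more.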

Additional observations from a re-analysis of the deposited data

Results flagged for a closer look

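The response of 5 genes differed between the time points by a test of the difference itself, the response at 48 h less that at 24 h on the log2 scale, from edgeR's quasi-likelihood test on all 32 libraries. Of all genes tested, 21.6% were called for the GW3965 response, 17.4% for the T0901317 response and 2.45% for the rosiglitazone response. KCNE3 changed most. Its GW3965 response differed by 1.27 (standard error 0.18, adjusted p = 2.02e-06) and its T0901317 response by 1.13 (standard error 0.18, adjusted p = 1.37e-05), with every library of both drugs below DMSO at 24 h and, at 48 h, GW3965 overlapping DMSO and T0901317 above it. KCNQ1, its partner, differed by 0.59 (standard error 0.14, adjusted p = 0.00124) under GW3965.

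AQP3 differed under all 3 drugs, by -0.64 (standard error 0.10, adjusted p = 3.88e-06) with GW3965, by -1.05 (standard error 0.10, adjusted p = 5.45e-10) with T0901317 and by -0.51 (standard error 0.10, adjusted p = 0.00104) with rosiglitazone. SGK1 differed by -0.68 (standard error 0.12, adjusted p = 2.46e-05) with GW3965 and by -0.48 (standard error 0.12, adjusted p = 0.00201) with T0901317. ANO1 differed by -0.46 (standard error 0.10, adjusted p = 0.00381) with rosiglitazone, a call lost in 6 of 16 fits that left out 1 library. DMSO itself differed between the time points in KCNE3, AQP3, SGK1 and ANO1, and the time in culture cannot be told apart from the separate tables.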

How the results depend on the processing

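Scaling by library size alone moved the median of all genes by over 0.1 in 4 comparisons, for rosiglitazone at 48 h to -0.19 (log2) against DMSO, -0.16 against GW3965 and -0.24 against T0901317, and to -0.075 for the rosiglitazone response between times. The share of calls that were higher went from 47.1% to 25.2% and from 48.4% to 20.1% for rosiglitazone against DMSO at 24 and 48 h, and likewise from 42.5% to 29.8% for rosiglitazone against T0901317 at 24 h, from 49.8% to 35.9% for rosiglitazone against GW3965 at 48 h, from 49.1% to 30.3% for rosiglitazone against T0901317 at 48 h, from 60.2% to 31.9% for GW3965 against T0901317 at 48 h, from 68.2% to 55.4% for GW3965 at 24 h, from 42.9% to 55.7% for the T0901317 response between times and from 56.5% to 29.3% for the rosiglitazone response between times. In the counts that follow, CFTR is left out wherever rosiglitazone is compared. Library size scaling gave 1 lower for rosiglitazone against GW3965 at 24 h, KCNQ1 (0 otherwise), 1 higher against T0901317 at 48 h (2 otherwise), and 2 higher and 1 lower for the T0901317 response between times (1 and 2 otherwise). Signs turned for GW3965 at 24 h in SCNN1A (-0.024), ANO1 (-0.0089) and SGK1 (-0.020), for rosiglitazone at 48 h in SCNN1A (-0.014), and for the T0901317 response in ANO1 (0.038), none of them past the threshold. RLE scaling gave 1 lower for GW3965 against T0901317 at 24 h. Of the counts by the 2-fold rule, a 1.5-fold rule gave 1 lower with GW3965, 1 higher with T0901317 and 2 lower with rosiglitazone at 48 h, and no fold rule gave 1 higher with T0901317 and 2 higher and 1 lower with rosiglitazone at 24 h, and 2 higher and 2 lower with GW3965, 4 higher with T0901317 and 2 lower with rosiglitazone at 48 h. Leaving out 1 library, GW3965 against T0901317 gave 1 to 2 lower at 24 h (2 otherwise) and 2 to 3 at 48 h (4 otherwise), rosiglitazone at 24 h 0 to 1 lower against GW3965 (KCNQ1, without GW3965 replicate 1) and 1 to 2 against T0901317 (2 otherwise, KCNQ1 lost), and the rosiglitazone response 1 to 3 lower (2 otherwise). The sign of values near 0 turned, with ranges of -0.021 to 0.085 (ANO1), -0.10 to 0.056 (KCNQ1), -0.022 to 0.082 (SCNN1A) and -0.023 to 0.079 (SGK1) for GW3965 at 24 h, -0.037 to 0.062 for CFTR with T0901317 at 48 h, -0.072 to 0.0011 for CFTR between the LXR agonists at 24 h, -0.091 to 0.016 for the ANO1 response to T0901317 and -0.060 to 0.058 for KCNQ1 between DMSO groups. DESeq2 and the fit without a filter moved no count of the 8 genes by over 1.5 times. Among single genes, fits that left out 1 library ended a call 44 times and added a call 9 times, where the same call was counted again in each such fit. DESeq2 added 9 calls, and library size scaling added 9 and ended 3. All of these kept their direction. The causes were not tested.

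With the replicate block, rosiglitazone against T0901317 at 24 h gave 1 lower (2 without it), since KCNQ1 was at -0.38, adjusted p = 0.0135. Each time point had its own block, so the DMSO difference between times in that fit was the one at replicate 1, not between the groups. There 1 gene was lower at 48 h (2 without the block), with KCNE3 at -0.29, adjusted p = 0.185. That value cannot show whether blocking changes the difference between the DMSO groups. Replicate numbers are shared in name only. The planned reading of binding sites at the 10 genes and its alternatives were not run.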
